A study of Mus musculus with 6 samples.

Results

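Zfp521 and Zfp423 are paralogous zinc-finger genes whose proteins bind the Ebf transcription factors, and they were picked by symbol, each with its probe set of highest mean over 6 arrays. Both genes were measured, each by 1 probe set, among 19938 genes in all. The pair was chosen with values of this comparison known, so their own levels and differences are given as a description, without a test. The samples were EGFP-positive cells, isolated by sorting from microdissected main olfactory epithelium (MOE) of mouse embryos at E18.5 on a C57BL/6 background. The targeted Fezf1 allele places EGFP under the endogenous Fezf1 promoter, so all sorted cells carried at least 1 targeted allele. There were 3 Fezf1+/- and 3 Fezf1-/- samples, each on 1 Affymetrix 1.0 ST array, and the heterozygous cells served as the control, with no wild-type cells analysed here. The labels do not say whether a sample was 1 embryo or a pool.

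Ebf proteins are helix-loop-helix factors that switch on genes of maturing olfactory neurons, among them those of olfactory marker protein and of odour transduction. Zfp423, first described as the olfactory partner of Ebf1, is known from progenitors and immature neurons of this epithelium, where it keeps Ebf factors from activating genes of mature neurons. Zfp423 also joins Smad proteins in BMP signalling, and Zfp521 is known from neural, blood-forming and bone-forming progenitors; both carry an amino-terminal motif that recruits the NuRD chromatin complex.

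Fezf1 signal was 11.23 ± 0.09 in the heterozygous cells and 5.92 ± 0.36 in the null cells (log2, SD, n = 3 each), in the direction of the labels. The olfactory markers Omp (9.09 to 12.1) and Gap43 (11.4 to 12.8) were high on all 6 arrays, and array medians lay between 5.82 and 5.95. Null replicate 1 stood apart, with correlations of 0.905 to 0.935 to the other arrays across genes, against 0.975 to 0.995 among the other 5. Results are therefore given with and without it. Without it, 531 of 19938 genes were called (2.66%), against 110 (0.552%) with it, where called means an adjusted p under 0.05 in limma over all genes. Leaving out any other array lowered that count, to between 40 and 69.

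Zfp521 was higher on every null array than on any heterozygous array. Its log2 signals were 6.52, 6.71 and 6.66 on heterozygous replicates 1, 2 and 3, and 8.40, 7.88 and 7.94 on null replicates 1, 2 and 3. The lowest null value thus lay 1.18 above the highest heterozygous value, while the heterozygous arrays spanned only 0.19. The means were 6.63 ± 0.10 and 8.07 ± 0.28 (SD, n = 3 each), a difference of 1.44 log2 units or 2.72-fold, the 31st highest of the 19938 genes. Groups did not overlap in 1938 genes that were higher in null cells (9.72%), so this separation by itself is common on these arrays. No test of this difference is given, because the pair was chosen with its values known. In sorted bulk cells, a change in how many cells express a gene and a change in signal per cell cannot be told apart.

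Zfp423 stood apart from the heterozygous level on 1 null array only. Its log2 signals were 8.37, 8.39 and 8.43 on the heterozygous arrays, and 7.73, 8.38 and 8.44 on null replicates 1, 2 and 3. Null replicates 2 and 3 therefore lay within 0.05 of the heterozygous mean, and only replicate 1 was low, by 0.67. The means were 8.39 ± 0.03 and 8.18 ± 0.40 (SD, n = 3 each), and the groups overlapped. The difference of -0.21 log2 units was smaller than the SD of the null arrays, and without null replicate 1 it was 0.02.

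**Figure D1:**
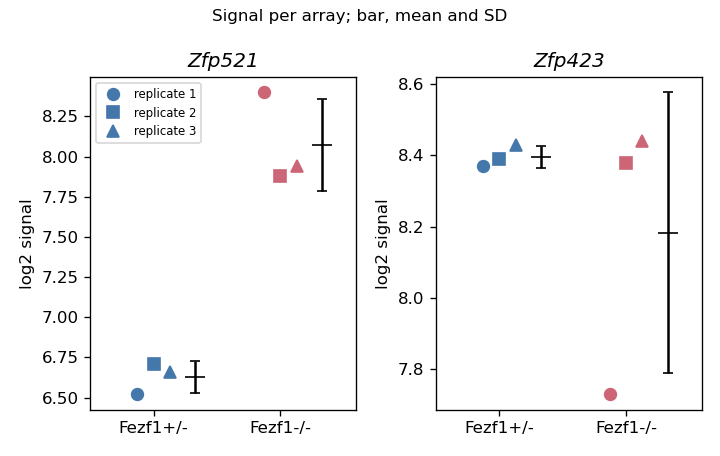
Log2 signal (vertical axes, with their own ranges) of Zfp521 and Zfp423 on each of the 3 Fezf1+/- and 3 Fezf1-/- arrays, with the marker shape giving the replicate number and bars the mean ± SD. Zfp521 values are 6.52 to 6.71 and 7.88 to 8.40 without overlap, while Zfp423 is low only on null replicate 1, at 7.73.

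On null replicate 1 the paralogues lay on opposite sides of the other null arrays. Zfp521 was 0.48 above the mean of null replicates 2 and 3 there, and Zfp423 was -0.68 from it. With that array left out, Zfp521 differed by 1.28 log2 units (2.43-fold, the 58th highest of all genes) and Zfp423 by 0.02 (1.01-fold). Null replicates 2 and 3 were then 0.05 apart in Zfp521 and 0.07 apart in Zfp423. Over the 6 arrays the log2 signals of the pair had a Pearson r of -0.600, and over the 5 without null replicate 1 an r of 0.299, a description in which the points share the array and the genotype.

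Markers of cells other than neurons were high on that same array. All 14 measured markers of mesenchyme and bone were higher on null replicate 1 than on the other null arrays, with a median shift of 3.41 from the heterozygous mean. Their summed signal, as log2, was 10.4 to 11.5 on the heterozygous arrays and 14.3, 11.1 and 10.5 on null replicates 1, 2 and 3. Col1a1, a fibrillar collagen gene of mesenchyme, stood at 12.1 on null replicate 1 and at 7.57 to 9.28 on the other 5 arrays. Myeloid markers behaved alike, with all 12 higher there and summed signals of 9.04 to 9.46 on heterozygous arrays against 11.9, 9.28 and 9.22 on null arrays. No marker was at 0, as the deposited values do not go below 2.14. On null replicates 2 and 3 the mesenchyme median lay 0.15 and -0.19 from the heterozygous mean, while Zfp521 lay 1.26 and 1.31 above it.

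The list medians of mature, immature and vomeronasal neuron markers moved the other way on null replicate 1. The 12 measured progenitor genes did not, with median shifts of 0.33, -0.01 and -0.18 on null replicates 1, 2 and 3. The 20 markers of mature olfactory neurons had median shifts of -2.02, -0.81 and -0.76 on null replicates 1, 2 and 3. The 18 markers of immature neurons had -0.84, 0.24 and 0.26, and Zfp423 itself -0.67, -0.02 and 0.05. The 10 measured vomeronasal neuron genes had -0.57, 0.49 and 0.36, and supporting (sustentacular) cell markers had 0.49, -0.53 and -0.61. The mature, immature, vomeronasal and supporting cell lists thus all lay off the heterozygous level on null replicates 2 and 3 as well, where Zfp521 was high.

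Of the genes listed for vomeronasal neurons, Gnai2, which encodes a G protein alpha subunit, was called over all 6 arrays (1 of 10, against 0.552% of all genes). It had log2 signals of 9.20, 9.42 and 9.06 in heterozygous and 10.47, 10.36 and 10.36 in null cells (difference 1.17, SE 0.12, adjusted p = 0.0201), and kept the call in 2 of 6 fits that left out an array, those without null replicate 1 and without heterozygous replicate 2. Over all 6 arrays 6 of the 10 differences were positive and 4 negative, with a median of 0.19. On null replicate 1, 8 of the 10 lay below both other null arrays, but Gnai2 was highest there. Without null replicate 1 all 10 differences were positive and 2 were called, Gnai2 and the receptor gene Vmn2r1 (2.46, SE 0.29, adjusted p = 0.00995). The heterozygous mean of Vmn2r1, 4.26, lay near the bottom of the range. On null replicate 1 Vmn2r1 was at 5.78, above that mean. Of 12 sustentacular markers 0 were called over all arrays by limma, with 1 at p below 0.05 before adjustment, Krt8 (0.67, adjusted p = 0.3). Without null replicate 1 their median was -0.58 and Ermn fell by 0.96 (SE 0.15, adjusted p = 0.024). In the mesenchyme, myeloid, ensheathing glia and endothelium lists 0 were called in either fit. Their genes with the smallest p-values over all arrays had these log2 differences: Sp7 0.51, Twist2 0.33, Cd68 0.86, C1qa 0.81, Ngfr 0.31, S100b 0.88, Cldn5 0.66 and Flt1 0.39. The adjusted p-values of these genes ran from 0.53 to 0.687. The part of these cell types in the values of the paralogues was not tested.

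**Figure D2:**
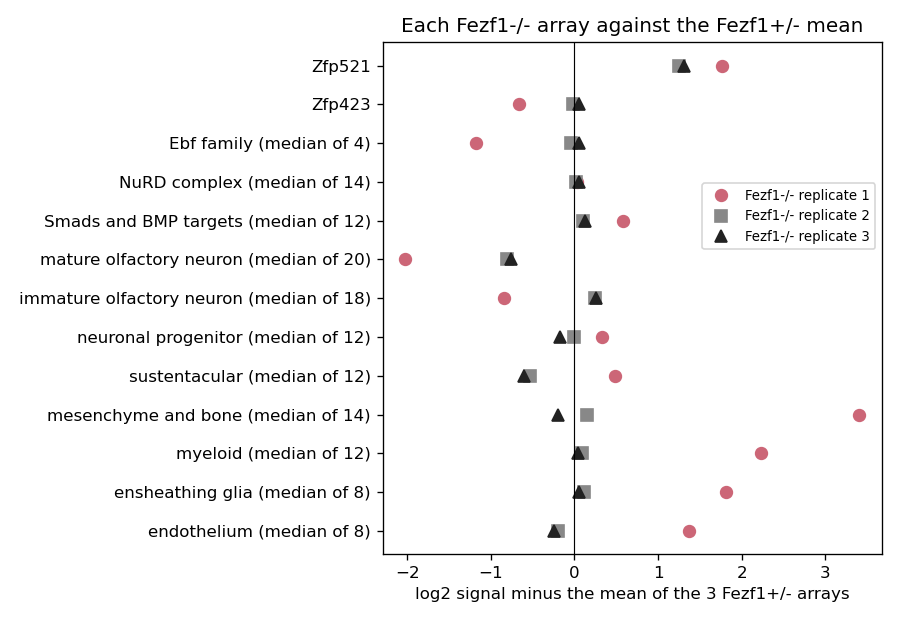
Shift of each Fezf1-/- array from the mean of the 3 Fezf1+/- arrays (horizontal axis, log2 units) for Zfp521, Zfp423 and the median of each named gene list, with 1 marker shape per null replicate. Zfp521 is shifted upwards on all 3 null arrays, by 1.26 to 1.77. Zfp423, the Ebf family and the mature and immature neuron lists are lowest on replicate 1. The neuronal progenitor list is highest there (0.33), and the mesenchyme list is high only there (3.41).

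Among genes with a name made of Zfp and a number, most of which encode zinc-finger proteins, Zfp521 had the highest difference of 317. The other 315 genes, leaving out both paralogues, had 0 calls by limma, against 0.552% of all genes. Before adjustment p was below 0.05 for 10 that were higher and 20 that were lower, a rate that 9.48% of all genes reached in either direction, and their median difference was -0.03 against 0.02 over all genes. The next highest was Zfp536 at 0.85 (adjusted p = 0.128) and the lowest Zfp474 at -0.78 (adjusted p = 0.263), both named after their values were seen. Zfp423 ranked 263rd of 317, and 134th without null replicate 1. In those 5 arrays Zfp521 again had the highest difference, and Zfp719 fell by 0.61 (SE 0.10, adjusted p = 0.0323).

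**Figure D3:**
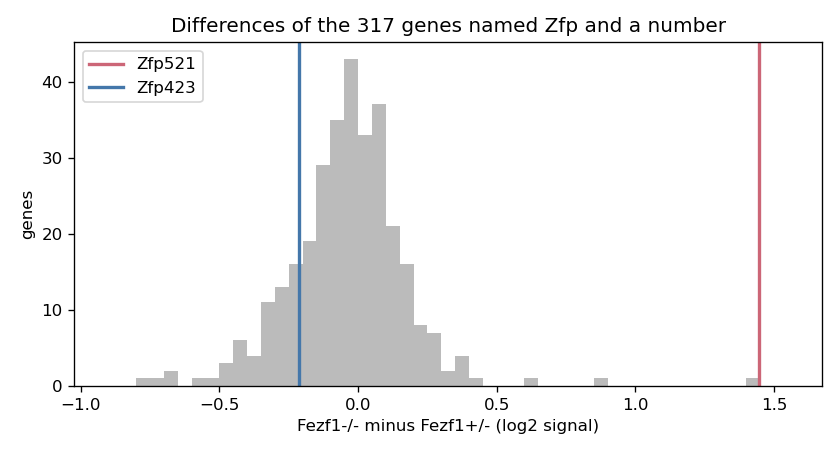
Histogram of Fezf1-/- minus Fezf1+/- differences (horizontal axis, log2 units) of the 317 genes named Zfp and a number, with vertical lines at Zfp521 and Zfp423. Most genes lie close to 0, Zfp423 is at -0.21 inside the bulk of the distribution, and Zfp521 is at 1.44, beyond the next gene at 0.85.

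The Ebf factors, the DNA-binding partners of both proteins, were not called. Ebf1, the founding member of the family, had log2 signals of 11.60, 11.56 and 11.80 in heterozygous and 10.64, 11.77 and 11.88 in null cells. Ebf2 had 11.82, 11.70 and 11.94 against 10.47, 11.62 and 11.71, and Ebf3 had 11.44, 11.15 and 11.35 against 10.36, 11.50 and 11.56. In these 3 genes null replicate 1 was the lowest array by more than 0.5 and null replicates 2 and 3 lay at or near the heterozygous range. Ebf4 stood at 8.95, 8.77 and 8.77 in heterozygous and 7.33, 8.42 and 8.29 in null cells, and was the only member of the 4 whose groups did not overlap.

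The differences were -0.23 (SE 0.34, adjusted p = 0.835) for Ebf1, -0.55 (SE 0.34, adjusted p = 0.665) for Ebf2, -0.17 (SE 0.33, adjusted p = 0.875) for Ebf3 and -0.82 (SE 0.29, adjusted p = 0.46) for Ebf4. By limma 0 of the 4 passed, and 1 was lower with p below 0.05 before adjustment. Their median of -0.39, beside 0.02 over all genes, became 0.01 without null replicate 1. In those 5 arrays Ebf1 was at 0.17, Ebf2 at -0.15, Ebf3 at 0.22 and Ebf4 at -0.48 (SE 0.10, adjusted p = 0.0766), and 0 passed. Over the 6 arrays Zfp423 had an r of 0.981 with Ebf1, 0.980 with Ebf2, 0.950 with Ebf3 and 0.880 with Ebf4, and with null replicate 1 left out an r of 0.782, 0.320, 0.224 and -0.480. Zfp521 had an r of -0.466, -0.726, -0.428 and -0.889 with the 4 genes in this order, and of 0.689, -0.684, 0.688 and -0.974 without that array.

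**Figure D4:**
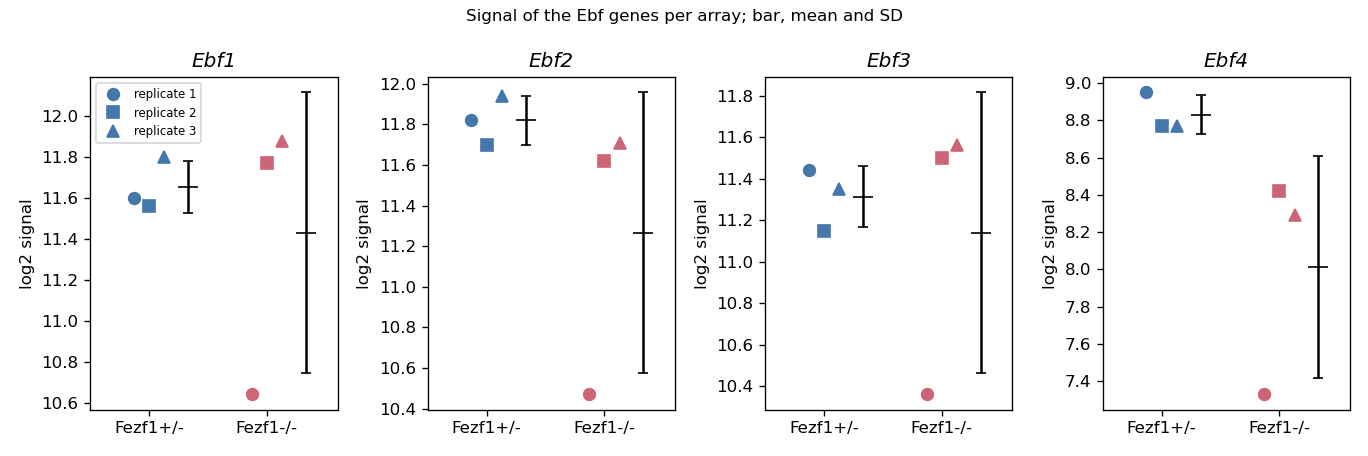
Log2 signal (vertical axes, with their own ranges) of Ebf1, Ebf2, Ebf3 and Ebf4 on each array, with the marker shape giving the replicate number and bars the mean ± SD of 3 arrays per genotype. Null replicate 1 is the lowest array for all 4 genes, and Ebf4 is also lower on null replicates 2 and 3, at 8.42 and 8.29 against at least 8.77 in heterozygous cells.

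Genes of olfactory neurons known for Ebf sites were lower on every null array, although none was called over all 6. Omp, which encodes olfactory marker protein, had log2 signals of 11.84, 11.82 and 12.12 in heterozygous and 9.09, 10.77 and 10.84 in null cells. Its difference was -1.69 (SE 0.48, adjusted p = 0.327), and -1.12 (SE 0.12, adjusted p = 0.00702) without null replicate 1. The adenylate cyclase gene Adcy3 was at -1.28 (SE 0.32, adjusted p = 0.263), and at -0.93 (SE 0.17, adjusted p = 0.0432) without that array. The olfactory G protein gene Gnal was at -1.69 (adjusted p = 0.411) and -1.07 (adjusted p = 0.0776), and the channel gene Cnga2 at -1.14 (adjusted p = 0.584) and -0.49 (adjusted p = 0.2), in the same order. All 4 had groups that did not overlap, where 8.77% of all genes did so in the lower direction. The wider mature list, which includes these 4, did the same: all 20 differences were negative, with a median of -1.18. In 15 of its 20 genes the groups did not overlap, so the fall was not particular to the 4. Over all arrays 0 of 20 were called, and 6 fell without null replicate 1 (1.67% of all genes). Those besides Omp and Adcy3 were Kirrel2 (-1.21), Stoml3 (-1.17), Slc24a4 (-1.15) and Pde1c (-0.89). These calls, and those named above and below from the same 5 arrays, were made in 1 of the 6 fits that left out an array, that without null replicate 1, unless a gene is said to be called over all 6 arrays.

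The immature list, the stage for which Zfp423 is known, had a median of -0.11 and 0 of 18 called, and before adjustment p was below 0.05 for 1 higher and 1 lower gene. Its smallest p-values were those of the adhesion gene Chl1 (1.15, SE 0.32, adjusted p = 0.318) and of the axon guidance receptor gene Nrp1 (-0.34, SE 0.12, adjusted p = 0.457). Without null replicate 1 the median was 0.32 and 3 rose, Stmn4 by 0.94, Chl1 by 0.77 and Ablim1 by 0.71 (0.993% of all genes). Chl1 had a low heterozygous mean of 4.46. It was at 6.37 on null replicate 1 and at 5.24 on each other null array, whereas 16 of the 18 markers were lowest on replicate 1 among null arrays. Progenitor genes had a median of 0.02 with 0 of 12 called, and 0 also without that array. In that list Pax6, which Zfp521 is known to activate in early neural cells, ran from 7.52 to 8.88 in heterozygous and from 8.77 to 9.21 in null cells, and the groups overlapped (difference 1.01, SE 0.37, adjusted p = 0.48).

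Promoters of the listed genes were searched for the palindrome that Ebf proteins bind. The letters TCCC, any 2 bases and GGGA, which read the same on both strands, were searched in RefSeq windows of 300 bases (GRCm38.p6, 250 before to 50 after a gene's start), and 0.904% of 32851 windows, or 1.06% of 27025 genes, held them. Of 217 listed genes 152 had a window and 3 of those (1.97%) held a match, the immature neuron genes Dpysl5 and Chl1 and the supporting cell gene Sec14l3. The 2 windows of Zfp423 held none, and neither did those of Ebf1, Ebf3, Ebf4, Adcy3 and Cnga2, while Zfp521, Ebf2, Omp and Gnal were not searched. The matches are shown as the listed genes that hold the site. The values of Chl1 are given above, Dpysl5 was at -0.37 (adjusted p = 0.743) and Sec14l3 at -0.56 (adjusted p = 0.69), and without null replicate 1 these were at 0.01 and -0.95 (adjusted p = 0.984 and 0.0693). Each line gives 30 bases of the plus strand with the palindrome in capitals, at chr6:103510775-103510804, chr5:30711501-30711530 and chr11:4064814-4064843 in this order, all upstream of the start.
Chl1: ctgcctcttgTCCCAAGGGAgtgtgtgtaa
Dpysl5: ccctatacccTCCCAGGGGActcgagccat
Sec14l3: taaagagttgTCCCAGGGGAggcgcctgag
A match describes the letters only.

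Genes of the NuRD complex, the histone deacetylase and remodelling complex that both proteins recruit, had no called member. By limma 0 of 14 were called and 0 had an unadjusted p under 0.05, and the differences ran from -0.39 (Hdac2) to 0.24 (Rbbp7) with a median of 0.04. Without null replicate 1 they ran from -0.17 to 0.29, again with 0 called. The smallest p-values were those of Gatad2a (-0.32, SE 0.15, adjusted p = 0.578) and Mbd3 (0.19, SE 0.10, adjusted p = 0.616). The 8 other zinc-finger genes with a NuRD motif, Zfpm1, Zfpm2, Sall1 to Sall4, Bcl11a and Bcl11b, had 0 calls by limma, and 1 was lower with p below 0.05 before adjustment. Of these Bcl11a had log2 signals of 9.03, 9.15 and 9.35 in heterozygous and 8.35, 8.49 and 8.77 in null cells, without overlap (difference -0.63, SE 0.15, adjusted p = 0.222). Zfpm1, Zfpm2, Sall1, Sall2, Sall3, Sall4 and Bcl11b lay between -0.12 and 0.17.

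Other recorded partners of the paralogues were the acetyltransferase gene Ep300 and the deacetylase gene Hdac3 for Zfp521, and retinoid receptors, Parp1, Cep290 and Notch1 for Zfp423. Of 11 measured 0 were called by limma, and 1 was lower with p below 0.05 before adjustment, the retinoic acid receptor gene Rarg (-0.40, SE 0.13, adjusted p = 0.4). Ep300 was at 0.09 and Hdac3 at -0.19. Rarb had 7.68, 7.71 and 7.81 in heterozygous and 9.0, 7.04 and 7.27 in null cells, with null replicate 1 highest and null replicates 2 and 3 lowest. Its difference of 0.04 (adjusted p = 0.982) became -0.57 (SE 0.11, adjusted p = 0.048) without null replicate 1, where it fell.

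In the BMP pathway, in which Zfp423 acts with Smad proteins, 1 of 13 ligand and receptor genes rose over all 6 arrays, where 0.0953% of all genes were called higher. Bmp7, a secreted ligand, had log2 signals of 7.04, 7.06 and 7.09 in heterozygous and 8.27, 8.23 and 8.35 in null cells (difference 1.22, SE 0.08, adjusted p = 0.0042). Null replicate 1 lay within 0.02 of the mean of the other null arrays in this gene, unlike in the paralogues, and Bmp7 was called in 6 of 6 fits that left out an array. Among 12 Smad genes and BMP target genes 0 were called by limma, and 3 were higher with p below 0.05 before adjustment, as were 843 of the 19938 genes. Those were Id2, an inhibitor of helix-loop-helix factors (0.72, SE 0.14, adjusted p = 0.151), Smad1, a transducer of BMP receptors (0.33, SE 0.09, adjusted p = 0.34), and Msx2 (0.26, SE 0.10, adjusted p = 0.472). All 3 had groups that did not overlap, as in 9.72% of all genes in this direction. Without null replicate 1 Id2 was at 0.72 (adjusted p = 0.0715) and Smad1 at 0.39 (adjusted p = 0.077), and the list median went from 0.25 to 0.09.

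Target genes of Notch signalling and genes of the Hedgehog pathway were highest on null replicate 1. These zinc fingers have also been placed in both pathways. By limma 0 of 6 Notch targets and 0 of 7 Hedgehog genes were called, and 0 had an unadjusted p under 0.05. The medians were 0.25 and 0.29, and 0.06 and -0.05 without that array, on which all 6 and all 7 lay above the other null arrays. Hey2, a Notch target, stood at 9.16 on null replicate 1 and at 4.60 to 5.22 on the other 5 arrays. Hes5, the Notch target tied to Zfp423, was at 0.11 (adjusted p = 0.805) and Gli1, a transcription factor of Hedgehog signalling, at 0.29 (adjusted p = 0.535). Early neural genes had a median of 0.07 with 0 of 8 called, and Sox1 and Sox3 were at 0.12 and 0.15. Of the fat cell genes that Zfp423 precedes in adipose tissue 0 of 6 were called by limma. Before adjustment p was below 0.05 for 1 higher gene, Pparg (0.46, adjusted p = 0.263), and 1 lower gene, Cebpa (-0.62, adjusted p = 0.304). Both had groups that did not overlap, as did 9.72% of all genes in the higher and 8.77% in the lower direction.

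The genes most like each paralogue were taken by Pearson r of log2 signals over the 6 arrays, among about 2250 genes with a mean above the median gene and a range of at least 1 log2 unit. For Zfp521 they were Fkbp9, an endoplasmic reticulum isomerase gene (r = 0.998), the scaffold gene Mpdz (0.989), the inositol transporter gene Slc5a3 (0.987), Faap20 (0.982) and the fatty acid elongase gene Elovl5 (0.982). All 5 were higher in null cells, as their choice by likeness implies, Fkbp9 by 1.79, Slc5a3 by 1.36, Mpdz by 1.17, Elovl5 by 0.98 and Faap20 by 0.78. Without null replicate 1 their r with Zfp521 was 0.970 to 0.997. For Zfp423 they were the odorant receptor gene Olfr1510 (r = 0.999), the calcium channel gene Cacna1b (0.998), the vesicle gene Rab3c (0.998), Astn2 (0.998) and Rab3a (0.996). All 5 were low on null replicate 1 alone, and without it their r with Zfp423 was 0.818 to 0.887. The points share the array and the genotype, so each r is a description.

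**Figure D5:**
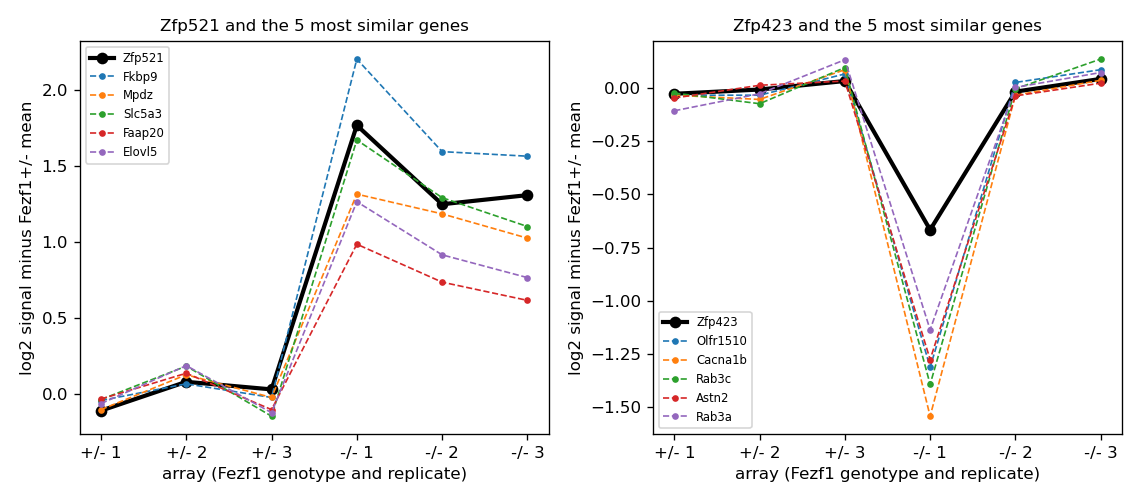
Log2 signal of Zfp521 (left) and Zfp423 (right) with their 5 most similar genes on each array, each gene minus its Fezf1+/- mean (vertical axes). Lines join the values of 1 gene and imply no order of replicates. The Zfp521 group is high on all 3 null arrays, and the Zfp423 group is low only on null replicate 1.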

How the data were processed

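RNA of 6 sorted samples was measured on Affymetrix 1.0 ST arrays. The authors deposited log2 signals per probe set. The submitters' processing notes name GCRMA and Affymetrix Expression Console, and their versions, their order and a genome build are not given in the sources used here. Base 2 was inferred from the range, 2.14 to 14.51. GCRMA subtracts an estimated background, so low signals depend on that estimate. Of 35557 probe sets, 21789 carried 1 symbol in the platform annotation, 1621 several and 12147 were not listed; symbols were updated through Entrez numbers to RefSeq (21698 matched). Each of 19938 genes took its probe set of highest mean, without a filter on low values.

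The genotypes were compared by two-sided tests in limma 3.58.1 (lmFit, then eBayes, R 4.3.3), adjusted by Benjamini-Hochberg over all genes, with a threshold of 0.05. Every adjusted p and SE is from limma. The labels do not say that replicates were separate animals, so a p-value reflects only how these samples vary, which may be technical, and 3 arrays per group limit the precision. Same-numbered arrays had correlations of deviations of 0.225, -0.332 and 0.541, so the numbers were not taken as pairs. The members and lists were chosen with earlier results of these data known. Listed genes without a probe set of 1 symbol were left out. Named genes were the pair, Fezf1, the Ebf family, members of short partner lists, from longer lists those called (up to 4) or the 2 with the smallest p, and the 5 most similar genes; others are named after their values were seen, among them Hey2, Rarb, Col1a1, Dpysl5 and Sec14l3. Alternatives were quantile normalisation, median centring, a filter on dim genes, averaged probe sets, trend and robust eBayes, array weights, a block for the replicate number, and fits without each array in turn.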

Additional observations from a re-analysis of the deposited data

How the results depend on the processing

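The difference of Zfp521 was 1.39 to 1.54 when a heterozygous array or null replicate 2 or 3 was left out, 1.28 without null replicate 1, and 1.44 to 1.49 under the other settings run for it. That of Zfp423 was -0.34 to 0.02 over the fits that left out an array, with the positive value without null replicate 1, and -0.21 to -0.17 otherwise. The median of the Ebf family was -0.61 to 0.01 over the fits that left out an array and -0.39 to -0.33 otherwise. The count of called genes, 110, was 106 to 109 under quantile normalisation, median centring, averaged probe sets or trend and robust settings, 24 when only genes above the median mean were tested, and 740 with array weights, which gave null replicate 1 a weight of 0.136. It was 40 to 531 when an array was left out. With the replicate number as a block it was 88, with 5 higher and 83 lower against 19 and 91, Zfp521 differed by 1.44 as before, and Gnai2, at 1.17, was not called. Higher calls were 19 of 110, but 11 of 24 with the filter, 284 of 740 with array weights and 198 of 531 without null replicate 1. Over all alternatives the other named genes stayed on their side of the threshold in 899 cases, gained a call in 31 and lost one in 24. In 1 further case, Rarb without null replicate 1, a call was gained with the sign of the difference reversed. Rarb, at 0.04 over all arrays, ran from -0.57 without null replicate 1 to 0.40 without null replicate 2. Signal over background could not be examined per probe.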
